A study of Homo sapiens with 6 samples.

Results

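The 10 genes described here are markers used to recognise stem-like cells in colon cancer or in the intestinal crypt, and were selected by symbol: CD44, PROM1, CD24, ALCAM, ALDH1A1, ALDH1A3, BMI1, DCLK1, LRIG1 and SMOC2. They are 10 of the 32029 genes for which the authors deposited counts, and each matched 1 row. RNA-seq was performed on SW480, a human colorectal adenocarcinoma cell line, in 3 cultures transfected with a control siRNA (siControl, labelled siNC, genotype WT) and 3 cultures transfected with siRNA against ZEB1 (siZEB1, genotype ZEB1 knockdown), a zinc-finger repressor of epithelial genes. RNA was taken 48 h after transfection, and both groups were the same cell line with no further treatment named. The knockdown was transient and covered 1 cell line in culture.

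Crypt stem cells divide to renew the intestinal lining, and a cancer stem cell is a tumor cell that can regrow a tumor. No single gene defines such cells, and the markers have unrelated roles. CD44 is a hyaluronan receptor, PROM1 (CD133) a membrane protein of cell protrusions, CD24 a small glycosylated adhesion protein and ALCAM (CD166) an adhesion molecule of the immunoglobulin family. ALDH1A1 and ALDH1A3 are cytosolic enzymes that oxidise retinal to retinoic acid, BMI1 is a nuclear subunit of Polycomb repressive complex 1, DCLK1 is a microtubule-associated kinase that marks tuft cells, LRIG1 is a membrane protein that restrains EGF receptors, and SMOC2 is a secreted matrix protein of the LGR5 stem cell signature. The label of surface markers therefore holds for only some of the 10 gene products.

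The total count per culture ranged from 19261824 to 22357633 with siControl and from 19040636 to 19349668 with siZEB1. ZEB1 itself was counted 1247, 1276 and 908 times in siControl, against 136, 132 and 162 times in siZEB1 (log2 fold change -2.85, edgeR adjusted p = 4.85e-12). KRT8 and KRT18, keratins of simple epithelia, were abundant at 3455 ± 160 and 1418 ± 150 CPM in siControl (SD, n = 3 each), whereas the colon markers CDH17, GPA33 and LGALS4 each stayed below 1 CPM in every culture. KRT19, CDX2, EPCAM and VIL1, of the same list of 10 colon epithelial genes, were present at 72.3, 103, 54.7 and 4.08 CPM in siControl. Of the 6 tested genes of the list, KRT19 (to 223 CPM), EPCAM and VIL1 rose and CDX2 fell, with a median log2 fold change of 0.83. At the same adjusted p-value threshold of 0.05, 19.0% of all tested genes were higher and 21.2% lower. CPM is the read count scaled to a common library size with TMM factors. Of markers of other cell types, 6 of 7 listed leukocyte genes, 5 of 8 fibroblast genes and 3 of 6 endothelial genes were below 1 CPM in every culture. Summed over the list, leukocyte markers reached 2.33 to 2.45 CPM (siControl) and 2.98 to 3.23 CPM (siZEB1), fibroblast markers 13.9 to 15.6 and 14.5 to 16.2 CPM, and endothelial markers 9.22 to 10.3 and 10.2 to 11.9 CPM. Their part in the differences below was not tested.

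ZEB1 binds E-boxes, so the promoter windows of the 10 genes were searched for CACCTG on both strands (CAGGTG is its reverse complement). RefSeq start sites on GRCh38.p14 gave a window of 300 bases, 250 before and 50 after the start, for all 10 genes, and the window of the most upstream start was used. The motif lay in 3 of the 10 windows, those of PROM1, ALCAM and ALDH1A1. Over all starts, 7 of the 21 windows of these genes (33.3%) held it, 3 of them of PROM1, against 20.6% of all 35116 RefSeq windows. The match in ALCAM began 109 bases before the start. Those of PROM1 began 103 bases before and 14 bases after the start, and that of ALDH1A1 25 bases after it. A match is a description of the letters and not a binding site, and no match says only that these letters are not in the window. The window of BMI1, the marker that rose, and those of CD24, DCLK1 and LRIG1, the markers that fell, held no match, and 1 of the 3 windows of CD24 and 1 of the 4 windows of LRIG1 at alternative starts did. The bases upstream of these genes are given below, 5′ to 3′ on the strand of the gene, with CACCTG in capitals where present. They are shown because 4 of the genes passed the test between groups and ALCAM carries the motif.
BMI1: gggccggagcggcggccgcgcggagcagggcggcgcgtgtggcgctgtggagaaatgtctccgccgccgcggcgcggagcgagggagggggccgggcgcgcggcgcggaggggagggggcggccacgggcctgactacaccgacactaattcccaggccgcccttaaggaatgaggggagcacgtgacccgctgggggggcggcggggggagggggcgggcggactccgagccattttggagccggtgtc
CD24: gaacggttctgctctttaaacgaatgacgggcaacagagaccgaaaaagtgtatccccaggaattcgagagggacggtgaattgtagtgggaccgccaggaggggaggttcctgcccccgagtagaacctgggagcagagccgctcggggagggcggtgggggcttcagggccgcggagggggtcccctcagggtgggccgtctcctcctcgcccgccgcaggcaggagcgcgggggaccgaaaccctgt
DCLK1: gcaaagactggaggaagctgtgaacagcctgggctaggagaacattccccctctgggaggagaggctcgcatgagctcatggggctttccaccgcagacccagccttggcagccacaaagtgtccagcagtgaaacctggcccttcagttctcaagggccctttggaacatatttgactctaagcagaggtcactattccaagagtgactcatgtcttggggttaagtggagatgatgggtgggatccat
LRIG1: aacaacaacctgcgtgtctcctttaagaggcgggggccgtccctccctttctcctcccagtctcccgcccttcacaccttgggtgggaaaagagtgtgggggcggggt
ALCAM: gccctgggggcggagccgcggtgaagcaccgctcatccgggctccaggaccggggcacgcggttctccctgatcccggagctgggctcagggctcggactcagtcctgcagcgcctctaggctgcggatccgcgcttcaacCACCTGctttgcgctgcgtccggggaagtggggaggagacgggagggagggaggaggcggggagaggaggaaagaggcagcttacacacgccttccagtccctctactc

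They correspond to chr10:22320849-22321098 on the plus strand for BMI1, chr6:106975628-106975877 on the minus strand for CD24, chr13:36131940-36132189 on the minus strand for DCLK1, chr3:66501264-66501371 on the minus strand for LRIG1 and chr3:105366659-105366908 on the plus strand for ALCAM. For LRIG1, the 108 bases lie outside the annotated gene. GC content was 76.8% upstream of BMI1, 68.8% upstream of ALCAM, 65.6% upstream of CD24, 62.0% upstream of LRIG1 and 54.0% upstream of DCLK1, with a median of 58% over the 250 bases before all RefSeq starts.

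Of the 10 markers, 5 passed the filter on low counts and could be tested: CD44, CD24, BMI1, DCLK1 and LRIG1. After ZEB1 knockdown, BMI1 rose to about 1.52-fold of its siControl level, DCLK1 and LRIG1 fell to 0.768-fold and 0.738-fold, and CD24, expressed at a few CPM, fell to 0.420-fold. CD44, among the most abundant of the markers, did not pass the test. In these bulk samples, fewer cells that express a gene and less RNA per cell cannot be told apart. The other 5 markers, PROM1, ALCAM, ALDH1A1, ALDH1A3 and SMOC2, had at most 11 reads in any culture. By edgeR's quasi-likelihood test with Benjamini-Hochberg adjustment over 14996 genes, 1 of the 5 tested markers was higher and 3 were lower at an adjusted p-value under 0.05, against a background of 19.0% of all tested genes higher and 21.2% lower. The groups did not overlap for any of the 5, as for 49.5% of all tested genes. At a fold change over 1.5 with an unadjusted p-value under 0.05, a rule met by 7.21% of genes upward and 9.35% downward, BMI1 remained higher and CD24 remained lower. BMI1 cleared this rule narrowly. Its log2 fold change was 0.53 without siControl replicate 2 and 0.55 without siZEB1 replicate 3, both under 1.5-fold.

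**Figure D1:**
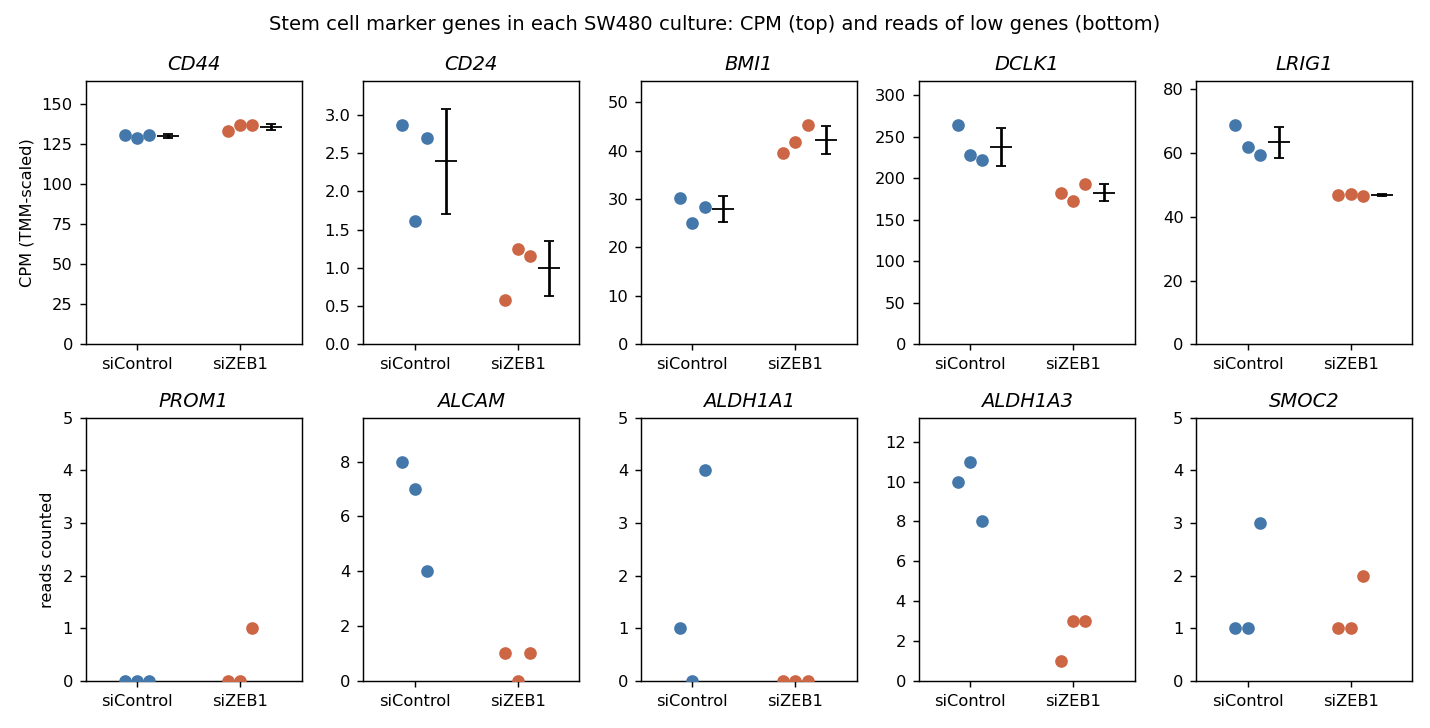
Each point is 1 culture of siControl (blue) or siZEB1 (orange). The upper panels give CPM with the mean ± SD over 3 cultures beside the points, and the lower panels give reads counted for the 5 markers below the filter. BMI1 lies higher and CD24, DCLK1 and LRIG1 lie lower in the siZEB1 cultures, and the CD44 groups lie 4.28% apart.

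Among the membrane receptors and adhesion proteins, CD44 (ENSG00000026508, chromosome 11 from 35138870 to 35232402 on GRCh38) was at 131, 129 and 131 CPM in the siControl cultures and at 133, 137 and 137 CPM in the siZEB1 cultures. All siZEB1 cultures lay above all siControl cultures, by a narrow margin. The means were 130 ± 1.08 and 136 ± 2.07 CPM (SD, n = 3 each). The log2 fold change was 0.06 (SE 0.058) and did not pass at an edgeR adjusted p of 0.436. The 95% interval of the log2 fold change ran from -0.06 to 0.18. The adjusted p-value stayed between 0.376 and 0.633 over 12 alternative analyses. CD44 is spliced into a standard form and variant forms, and these counts per gene sum over all of its 39 annotated transcripts, so the balance between forms was not measured.

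CD24 (ENSG00000272398, chromosome 6 from 106969831 to 106975627) was covered by 61, 36 and 52 reads in siControl, against 11, 24 and 22 in siZEB1. In CPM these were 2.87, 1.61 and 2.70 against 0.583, 1.25 and 1.15. No siZEB1 value reached the lowest siControl value, although the spread within each group was wide, with a coefficient of variation of 28.6% and 36.2%. The mean fell from 2.39 ± 0.684 to 0.993 ± 0.359 CPM (log2 fold change -1.25, SE 0.30, edgeR adjusted p = 0.00331). Dropping single cultures moved the log2 fold change between -1.48 and -0.98, with the highest adjusted p of 0.0226 in the absence of siZEB1 replicate 1. CD24 has processed pseudogenes elsewhere in the genome with which reads can be shared, so its count is uncertain.

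LRIG1 (ENSG00000144749, chromosome 3 from 66378797 to 66501263) was at 68.9, 62.0 and 59.4 CPM with siControl and at 46.9, 47.2 and 46.4 CPM with siZEB1. The siZEB1 cultures were close to each other, with a coefficient of variation of 0.885% against 7.66% in siControl, and the groups did not overlap. The mean fell from 63.4 ± 4.86 to 46.8 ± 0.414 CPM (log2 fold change -0.44, SE 0.072, edgeR adjusted p = 0.000124), a change of -26.2% in mean CPM. Exons of SLC25A26 on the opposite strand overlap 12.9% of its exonic bases, and the strand setting of the counting is not given in the sources used here.

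ALCAM (ENSG00000170017, chromosome 3 from 105366909 to 105576900) was near the limit of detection, with siControl counts of 8, 7 and 4 reads against siZEB1 counts of 1, 0 and 1. Summed over cultures and scaled by library size, the ratio of siZEB1 to siControl was 0.116, with an exact 95% interval from 0.0131 to 0.480 that covers counting error only. The groups did not overlap, and an exact permutation test, two-sided, gave p = 0.1, the smallest that 3 cultures against 3 allow. PROM1 (ENSG00000007062, chromosome 4 from 15963076 to 16084378) had 0 reads in each siControl culture and 0, 0 and 1 read in the siZEB1 cultures. A count of 0 over the siControl libraries allows a level of up to 0.0477 CPM, above the 0.0175 CPM that the 1 read gave over the siZEB1 libraries, so no difference was detectable at this depth.

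Of the enzymes, ALDH1A3 (ENSG00000184254, chromosome 15 from 100877714 to 100916626) was covered by 10, 11 and 8 reads in siControl, against 1, 3 and 3 in siZEB1. All siZEB1 cultures were lower, with 0.461 CPM over the siControl libraries and 0.122 CPM over the siZEB1 libraries. The ratio was 0.265 with an exact 95% counting interval from 0.0981 to 0.619, and the exact permutation test gave p = 0.1, two-sided. Exons of the antisense gene AC015712.2 overlap 27.5% of the exonic bases of ALDH1A3. AC015712.2 was covered by 10, 20 and 8 reads in siControl, against 11, 6 and 4 in siZEB1, and without strand the reads of the pair cannot be told apart. ALDH1A1 (ENSG00000165092, chromosome 9 from 72900662 to 73080442) was covered by 1, 0 and 4 reads in siControl and by none in siZEB1, and the groups overlapped. A count of 0 over the siZEB1 libraries allows up to 0.0524 CPM, and the 0.0795 CPM measured with siControl rests on 5 reads. The exact 95% counting interval of the ratio ran from 0 to 1.2 and so included 1. The exact permutation test, two-sided, gave p = 0.4, so no difference was detectable at this depth.

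BMI1 (ENSG00000168283, chromosome 10 from 22321211 to 22331484), whose product helps the Polycomb complex silence genes, was at 30.3, 25.1 and 28.4 CPM in the siControl cultures and at 39.6, 41.9 and 45.4 CPM in the siZEB1 cultures. Every siZEB1 culture lay above every siControl culture. The mean rose from 27.9 ± 2.65 to 42.3 ± 2.91 CPM (log2 fold change 0.60, SE 0.086, edgeR adjusted p = 2.95e-05) with a 95% interval from 0.42 to 0.78. The read-through gene COMMD3-BMI1 shares 23.3% of the exonic bases of BMI1 on the same strand. It had no row in the counts under this symbol, and how reads in shared exons were assigned is not given in the sources used here. The neighbouring COMMD3 stood at 1.23 ± 0.250 CPM (siControl) and 1.41 ± 0.275 CPM (siZEB1), without a call (adjusted p = 0.586, edgeR).

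DCLK1 (ENSG00000133083, chromosome 13 from 35768652 to 36131306) was the marker with the most reads, between 3317 and 5613 per culture. Its level was 264, 227 and 221 CPM with siControl and 182, 173 and 193 CPM with siZEB1, with siControl replicate 1 standing above the other 2 and no overlap between the groups. The mean fell from 238 ± 23.1 to 182 ± 10.4 CPM (log2 fold change -0.38, SE 0.071, edgeR adjusted p = 0.000368), a change of -23.2% in mean CPM. Without siControl replicate 1, the log2 fold change was -0.30 (adjusted p = 0.00219). SMOC2 (ENSG00000112562, chromosome 6 from 168441151 to 168673445) was covered by 1, 1 and 3 reads in siControl, against 1, 1 and 2 in siZEB1, too few to compare.

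**Figure D2:**
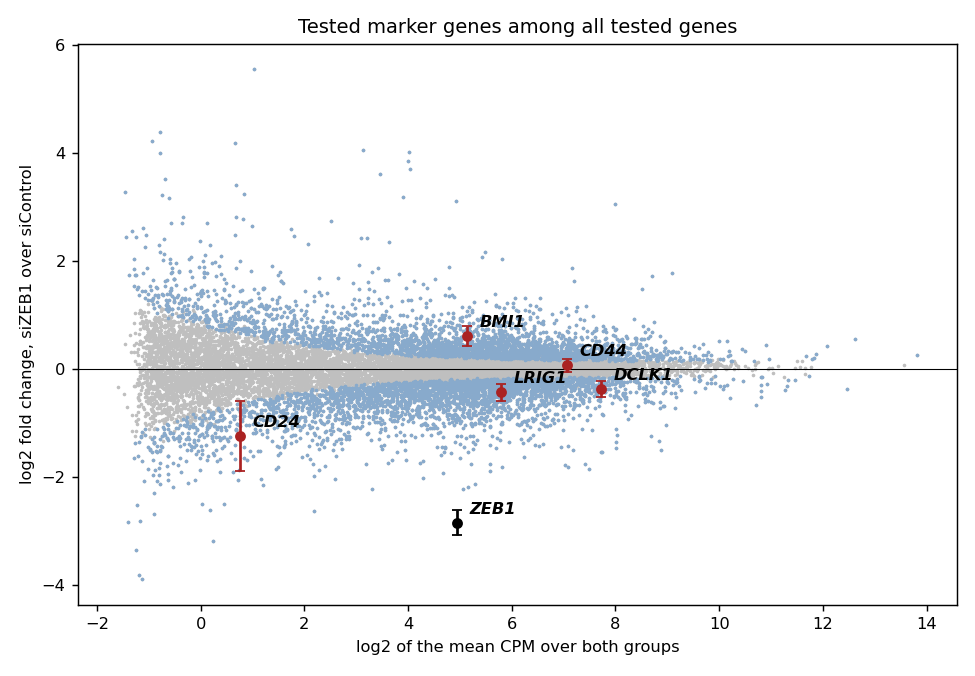
The horizontal axis is log2 of the mean CPM over both groups and the vertical axis the log2 fold change of siZEB1 over siControl. Each dot is 1 of the 14996 tested genes, blue at an adjusted p-value under 0.05 and grey otherwise. The 5 tested markers (red) and ZEB1 (black) carry their 95% intervals, and the interval of CD44 alone among them includes 0.

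To compare levels between genes, CPM was divided by the kilobases of exon of each gene. In siControl, DCLK1 was highest at 16.5 ± 1.61 CPM per kb, followed by CD44 at 13.0 ± 0.108, LRIG1 at 9.02 ± 0.691 and BMI1 at 6.52 ± 0.619 CPM per kb (SD, n = 3 each). No neighbouring pair of these genes overlapped between cultures in siControl. The siControl levels of DCLK1 and CD44 per kb were above those of 80.3% and 75.6% of tested genes, for which the median was 4.03 CPM per kb. CD24 was far lower, at 0.772 ± 0.221 CPM per kb, and the 5 untested markers ranged from 0 CPM per kb for PROM1 to 0.0795 for ALDH1A3. With siZEB1 the order by mean level was CD44 at 13.6 ± 0.207, DCLK1 at 12.7 ± 0.724, BMI1 at 9.87 ± 0.679 and LRIG1 at 6.66 ± 0.0589 CPM per kb. The cultures of CD44 (lowest 13.3) and DCLK1 (highest 13.4) then overlapped, and BMI1, below LRIG1 in each siControl culture, was above it in each siZEB1 culture.

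**Figure D3:**
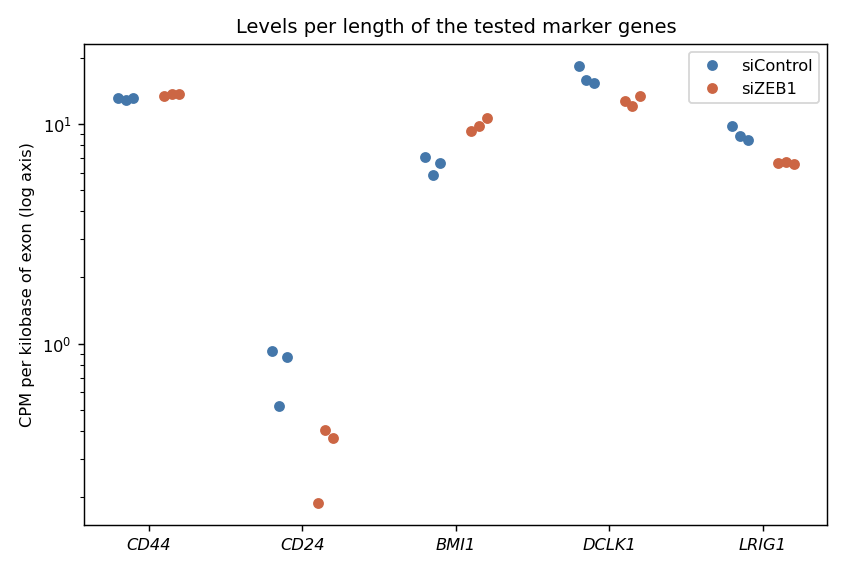
Each point is 1 culture, and the vertical log axis gives CPM per kb of exon for the 5 tested markers in siControl (blue) and siZEB1 (orange). DCLK1 lies above CD44 in siControl and meets it in siZEB1, while BMI1 and LRIG1 exchange places.

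Other stem cell genes were compared in the same fit. Of 35 listed, 29 were tested. By the same threshold 15 fell and 3 rose, and the median log2 fold change was -0.28 against -0.0055 over all genes tested. Among those that fell, LGR5, TSPAN8 and MSI1 passed the filter on low counts through their siControl reads alone. TSPAN8 had 18, 13 and 11 reads in siControl, against 2, 1 and 2 in siZEB1, and MSI1 22, 16 and 16, against 5, 6 and 7. Such genes could be called only as falls, which limits what the count of 15 and the median can show. Over all tested genes 21.2% fell and 19.0% rose, the shares to set beside the counts of this list and of each list below. EPCAM, an epithelial adhesion protein used with CD44 to sort colon tumor cells, rose from 55.0, 56.8 and 52.3 CPM to 463, 461 and 437 CPM (log2 fold change 3.05, SE 0.062, edgeR adjusted p = 2.54e-15). PTK7, a Wnt co-receptor, rose from 80.3 ± 1.94 to 151 ± 3.65 CPM. ASCL2, the transcription factor of crypt base stem cells, rose from 2.60 ± 0.546 to 4.52 ± 1.13 CPM (adjusted p = 0.00563). These were the 3 genes of the list that rose.

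The R-spondin receptors went the other way. LGR4 fell from 13.9 ± 1.52 to 5.59 ± 0.283 CPM (log2 fold change -1.31, SE 0.12, edgeR adjusted p = 1.81e-07). LGR5, the canonical marker of cycling crypt stem cells, was covered by 18, 16 and 19 reads in siControl, against 1, 8 and 3 in siZEB1 (log2 fold change -1.98, edgeR adjusted p = 0.00466). LGR5 passed the filter on low counts through its siControl reads alone, which limits what its adjusted p-value can show. Without siZEB1 replicate 2, the culture with 8 reads, the log2 fold change was -2.93, and without siZEB1 replicate 1 it was -1.54. LGR5 and ASCL2, which mark the same cells of the crypt, thus moved in opposite directions here, each on few reads. PROCR, a receptor of protein C, fell by 1.02 and SOX9, a crypt transcription factor, by 0.35 on the log2 scale.

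**Figure D4:**
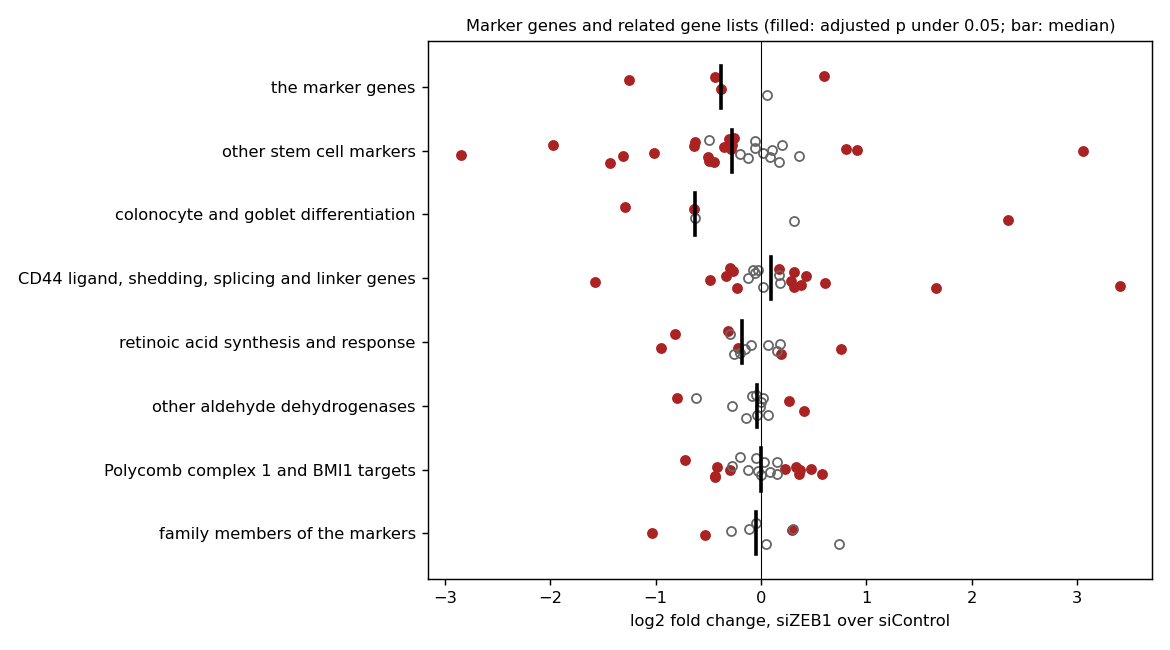
Each symbol is 1 tested gene on the log2 fold change axis, filled red at an adjusted p-value under 0.05 and open otherwise, and the black bar is the median of the list. Among the 8 lists drawn, which leave out the cell identity lists, the medians run from -0.63 for the differentiation genes to 0.094 for the CD44-related genes, and EPCAM, VIL1 and ESRP1 are the farthest points to the right in their lists.

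Around CD44, 22 of 26 genes for its ligands, shedding, splicing and cytoskeletal linkage were tested, with 9 higher, 6 lower and a median log2 fold change of 0.094. ESRP1, a splicing factor that promotes the variant forms of CD44, rose from 5, 6 and 6 reads to 50, 46 and 71 reads (log2 fold change 3.40, edgeR adjusted p = 3.58e-07). ESRP1 passed the filter on low counts through its siZEB1 reads alone, which limits what its adjusted p-value can show. ESRP2, its paralog, rose from 56.0 ± 1.39 to 75.3 ± 2.63 CPM (adjusted p = 6.03e-05, edgeR). CEMIP, which degrades hyaluronan, rose by 0.61 on the log2 scale. ANK3, an ankyrin, fell from 1.52 ± 0.107 to 0.506 ± 0.158 CPM, and RBM3, an RNA-binding protein, fell by 0.48. ANK3 passed the filter on low counts through its siControl reads alone (33, 36 and 27, against 7, 9 and 13 in siZEB1). HAS2, among the higher genes of this list, passed through its siZEB1 reads alone (25, 15 and 21, against 8, 6 and 7 in siControl). This limits what their calls and the counts of the list can show. None of these values is a measure of CD44 splicing.

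Around the aldehyde dehydrogenases, 13 of the 15 other family members were tested, and 2 were higher and 1 lower. ALDH1B1, the mitochondrial family member also used as a colon stem cell marker, was at 81.2, 76.3 and 72.7 CPM with siControl and at 45.2, 46.9 and 40.5 CPM with siZEB1. The groups stood well apart, and the level fell by 0.80 on the log2 scale (SE 0.075, edgeR adjusted p = 2.81e-07). ALDH3A2 rose by 0.26 and ALDH6A1 by 0.41 on the log2 scale, and the call of ALDH6A1 was lost in 5 of the alternative fits, with an adjusted p-value of 0.0700 by DESeq2 and up to 0.178 without siControl replicate 2. Of 25 genes of retinoic acid synthesis and response, 14 were tested, 4 were lower and 2 higher. RARG, a retinoic acid receptor, fell by 0.82 and CYP26B1, which degrades retinoic acid, by 0.95, STRA6 and CRABP2, which take up retinol and carry retinoic acid, fell by 0.32 and 0.22, and RXRB, a partner receptor, rose by 0.76. CYP26A1, of the same family as CYP26B1, was not tested and went the other way, with 0, 0 and 4 reads in siControl, against 12, 14 and 9 in siZEB1. ALDH1A2, the remaining retinal dehydrogenase of the ALDH1A family, was covered by 3, 0 and 4 reads in siControl, against 3, 5 and 4 in siZEB1.

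Around BMI1, all 21 listed genes of Polycomb complex 1 and its targets were tested, with 6 higher, 5 lower and a median log2 fold change of 0.0018. PCGF6, a paralog of BMI1, rose from 44.9 ± 1.47 to 62.2 ± 2.32 CPM, while PCGF5, another paralog, fell from 102 ± 8.51 to 61.8 ± 2.30 CPM (adjusted p = 3.65e-05 and 6.18e-07, edgeR). CBX6, a chromobox subunit, rose by 0.58, and PHC2 and SCMH1, polyhomeotic and Scm-like components, fell by 0.44 each. CDKN2A, a cell cycle inhibitor gene that BMI1 is known to repress, rose from 17.3, 19.6 and 21.1 CPM to 24.2, 25.5 and 24.4 CPM (log2 fold change 0.36, SE 0.090, edgeR adjusted p = 0.00443), so that both it and BMI1 were higher with siZEB1. CDKN2B, of the same list, was not called (log2 fold change 0.15, edgeR adjusted p = 0.278). RNF2, the catalytic partner of BMI1, was not called at 38.3 ± 3.45 and 35.0 ± 3.25 CPM (adjusted p = 0.261).

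Of the families of the other markers, 9 of 21 genes were tested, with 1 higher and 2 lower. MCAM, an adhesion molecule related to ALCAM, fell from 73.6, 78.3 and 75.3 CPM to 39.7, 36.7 and 34.8 CPM (log2 fold change -1.03, SE 0.072, edgeR adjusted p = 7.77e-09). SPARC, a matrix protein of the family that includes SMOC2, fell from 347 ± 7.15 to 240 ± 12.02 CPM. BCAM rose by 0.29 on the log2 scale, a call lost without siControl replicate 1, siControl replicate 2 or siZEB1 replicate 2 (adjusted p up to 0.0770). PROM2, the paralog of PROM1, had 2 reads in 1 siControl culture and 0 in the others, and LRIG3 and SMOC1 had no row in the counts under these symbols.

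Of 20 listed colonocyte and goblet cell genes, 15 had counts here, of which 11 were below 1 CPM in every culture. 5 were tested, with 1 higher and 2 lower. VIL1, the brush border protein villin, rose from 4.08 ± 0.503 to 20.7 ± 1.49 CPM. CDX2 and HNF4A, transcription factors of intestinal identity, fell from 103 ± 7.08 to 41.8 ± 2.66 CPM and from 49.4 ± 0.217 to 31.9 ± 0.285 CPM, with log2 fold changes of -1.30 and -0.63 (adjusted p = 8.28e-10 and 1.58e-06, edgeR). KRT20, the keratin of differentiated colonocytes, was covered by 20, 9 and 2 reads in siControl, against 14, 9 and 12 in siZEB1 and was not called (adjusted p = 0.664).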

How the data were processed

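RNA-seq libraries of 6 SW480 cultures were analysed, 3 per group, which the study calls biological replicates. The authors deposited raw counts of reads per Ensembl gene, and the submitters' processing notes name Trimmomatic, HISAT2, SAMtools, featureCounts and hg38. Their versions, the annotation and the strand setting are not given in the sources used here. From the counts, genes were kept by filterByExpr (14996 of 32029), scaled by TMM and tested by edgeR's quasi-likelihood test (edgeR 4.0.16, R 4.3.3) on group alone, with p-values adjusted by Benjamini-Hochberg. Exact tests used scipy 1.17.1. Coordinates and exon lengths are from GENCODE 29 on GRCh38, in which 31059 identifiers matched. The test was checked on simulated counts of 14996 genes with 200 changed, and for siZEB1 against siControl it recovered 73% of 1.5-fold and 81% of 2-fold changes, with 2.53% of calls false. In the data 19.0% of genes were called higher and 21.2% lower, far more than were changed in the simulation. These rates therefore need not hold for the calls above.

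Replicates differed by 2.27 to 9.58 times sampling noise (chi-square over degrees of freedom), so none was counted as a copy. Depth limits the genes with few reads. Members and lists were chosen with earlier results of these data known. Named genes were all members and ZEB1, up to 5 called genes per list with the largest change, at least 1 CPM and no overlap between groups, and a few genes set by name. KRT8, KRT18, CDH17, GPA33 and LGALS4 were named from the marker list of colon epithelium. CDKN2A, CDKN2B, COMMD3, AC015712.2, TSPAN8, MSI1, HAS2 and CYP26A1 were named after their values were seen. Alternatives were DESeq2 1.42.0, other size factors, other filters, the replicate number as a block, leaving out each culture, another call rule and another gene length.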

Additional observations from a re-analysis of the deposited data

How the results depend on the processing

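The directions and calls of BMI1, CD24, DCLK1 and LRIG1 held in all 12 refits (DESeq2, 2 other scalings, 2 other filters, the replicate block and each culture left out), as did the absence of a call for CD44. With a fold change over 1.5 and an unadjusted p-value under 0.05 as the rule, DCLK1 (-0.38) and LRIG1 (-0.44) no longer counted as lower, 1 marker was lower, and the counts fell to 1081 higher and 1402 lower over all genes and to 9 higher and 17 lower over the related lists, from 24 and 35. Without a filter on low counts 5 markers were lower, with ALCAM (edgeR adjusted p = 0.0249) and ALDH1A3 (0.0337) then called. ALDH1A1, PROM1 and SMOC2 were not (edgeR adjusted p = 0.223, 0.603 and 0.955). The test itself had changed in that fit. MCAM, at log2 fold changes of -1.03 with the filter and -1.04 without, went from an edgeR p of 8.19e-11 to 1.27e-38. The calls of ALCAM (19 against 2 reads) and ALDH1A3 (29 against 7 reads) therefore cannot be set beside those of the filtered fit. By exact permutation test both had p = 0.1. With the longest transcript as the length, the siControl levels were 29.7 CPM per kb for DCLK1, 22.7 for CD44, 12.01 for LRIG1 and 8.14 for BMI1, in the same order. KRT20 ranged from -0.12 (without siControl replicate 3, a change of sign) to 1.202 (without siControl replicate 1) when cultures were left out, and was not called in any of these fits. Same-numbered cultures did not deviate together (r = -0.10, -0.15 and -0.36 over 13197 genes), so the numbers pair nothing. Between differently numbered cultures of the groups r ran from -0.19 to 0.28, the highest for siControl replicate 3 with siZEB1 replicate 2. What those cultures share was not tested, and the fit on group alone does not model it. With the replicate block the counts were 2289 higher and 2679 lower over all genes, and 1 marker was higher and 3 lower. Of 464 refits or rules over 36 other named genes, 435 kept direction and call, 28 lost the call and 1 reversed. Depth limits PROM1, ALCAM, ALDH1A1, ALDH1A3 and SMOC2 most.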
